A study of Mus musculus with 4 samples.

Results

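The genes described here are 7 genes of cholesterol synthesis in the mouse lens, *Hmgcs1*, *Fdft1*, *Sqle*, *Lss*, *Cyp51*, *Dhcr7* and *Srebf2*. They were picked by gene name from the 56748 genes of the deposited expression table. They comprise 6 enzymes of the pathway and the transcription factor that regulates it. Each name matched 1 gene, and all 7 were among the 15997 genes that were tested. These genes and the wider gene lists used below were chosen with earlier results of these data known. Lenses from 10 to 12 day old mice were sequenced as polyA RNA, with 2 libraries per group, and the lenses of several mice were pooled for each library. The mutant libraries carried the genotype *Fsp1-cre;Pdgfrb+/D849V*, in which 1 allele of the PDGF receptor beta gene is replaced by a hyperactive form once Cre has acted. The control libraries are labelled *Fsp1-cre;Pdgfrb+/+*, whereas the study's methods describe control pools that also held mice without Cre, with or without the D849V allele. Cre was driven by the promoter of *Fsp1* (*S100a4*), which is not a lens-specific gene, and the line was bred into the FVB/N strain and also carries a Cre-dependent tdTomato reporter. The study describes robust reporter activity in the lens epithelium from an age later than that sampled here. It assumes that the mutant receptor is expressed once Cre is induced. The comparison asks how transcripts of the young lens differ with this genotype before cataract is visible.

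Cells make cholesterol from acetyl-CoA through mevalonate, the isoprenoid diphosphates, squalene and lanosterol, and a last series of steps reshapes lanosterol into cholesterol. When the endoplasmic reticulum runs short of sterol, SCAP escorts SREBP2, the product of *Srebf2*, to the Golgi, where proteases release the part that switches on most of these enzymes, and the INSIG proteins hold SCAP back when sterol is plentiful. The lens has no blood supply of its own and its fibre membranes are exceptionally rich in cholesterol. Inherited defects of *LSS* in people and of *Lss* together with *Fdft1* in the Shumiya rat cause cataract, and cataract is among the features of Smith-Lemli-Opitz syndrome, which is due to loss of *DHCR7*.

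RefSeq promoters on GRCm38.p6 were found for 5 of the 7 genes, *Hmgcs1*, *Lss*, *Cyp51*, *Dhcr7* and *Srebf2*. The 250 bases before the transcription start are shown for the 4 genes whose FPKM was lower in both mutant libraries than in both control libraries. Capitals mark the letters TCACCNCA on either strand, a form of the sterol regulatory element to which SREBPs bind. The windows lie at chr13:119690101-119690350 on the plus strand for *Hmgcs1*, chr5:4104698-4104947 on the minus strand for *Cyp51*, chr10:76531355-76531604 on the plus strand for *Lss* and chr15:82147019-82147268 on the plus strand for *Srebf2*.
Hmgcs1: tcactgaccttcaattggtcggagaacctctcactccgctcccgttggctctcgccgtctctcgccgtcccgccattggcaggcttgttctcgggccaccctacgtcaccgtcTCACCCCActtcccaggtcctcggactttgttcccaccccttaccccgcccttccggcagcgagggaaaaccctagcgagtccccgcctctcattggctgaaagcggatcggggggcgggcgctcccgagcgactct
Cyp51: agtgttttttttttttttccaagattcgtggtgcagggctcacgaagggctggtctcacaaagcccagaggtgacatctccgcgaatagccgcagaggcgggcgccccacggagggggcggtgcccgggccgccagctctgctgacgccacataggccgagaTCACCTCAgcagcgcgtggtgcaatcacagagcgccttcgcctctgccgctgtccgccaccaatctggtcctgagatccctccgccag
Lss: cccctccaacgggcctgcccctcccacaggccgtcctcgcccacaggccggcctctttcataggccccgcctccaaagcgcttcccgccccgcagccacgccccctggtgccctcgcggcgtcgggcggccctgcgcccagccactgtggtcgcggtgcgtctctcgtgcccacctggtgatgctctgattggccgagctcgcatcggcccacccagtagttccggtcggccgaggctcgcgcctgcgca
Srebf2: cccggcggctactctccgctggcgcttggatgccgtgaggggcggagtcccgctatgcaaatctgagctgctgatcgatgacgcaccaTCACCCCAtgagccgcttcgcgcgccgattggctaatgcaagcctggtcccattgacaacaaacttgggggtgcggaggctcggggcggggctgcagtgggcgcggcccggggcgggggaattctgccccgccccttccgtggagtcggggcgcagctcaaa
The match began 137 bases before the start in *Hmgcs1*, 88 bases before it in *Cyp51* and 162 bases before it in *Srebf2*. The *Lss* window and the 3 *Dhcr7* windows did not hold these letters. Over all 32851 RefSeq windows of 250 bases, 3.61% held TCACCNCA. The share was 42.9% of the 7 windows of these 5 genes. It was 13.6% of the 22 windows of the wider list of synthesis enzymes, from *Cyp51*, *Hmgcs1* and *Hsd17b7*. TCACCNCA was chosen after the promoters had been read, so these shares do not test enrichment. The letters CCAAT, the recognition site of NF-Y, which often binds beside SREBPs, occurred on either strand in 5 of the 7 windows and in 33.8% of all windows. GGGCGG, the core of the GC box bound by Sp1, was found on either strand in 6 of the 7 windows, against 32.7% of all windows. Of the 22 windows of the wider list, 72.7% held CCAAT and 77.3% held GGGCGG. The 7 windows include the 3 of *Dhcr7*, and enrichment was not tested for either motif. None of these motifs overlaps another in the 4 windows shown, and a match describes letters, not binding.

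The 4 libraries held between 18561682 and 18878768 reads, as recovered from the FPKM, and crystallin genes took between 58.6% and 62.9% of them. Several lens markers were high in every library. The fibre genes *Cryaa* and *Mip* reached at least 66165 and 3515 FPKM, and *Foxe3*, which marks the lens epithelium, lay between 103 and 122 FPKM, although *Lim2*, another fibre gene, was listed at 0 throughout. *Pdgfrb* had 2.36 and 2.16 FPKM in the mutant libraries and 2.25 and 1.79 FPKM in the control libraries, and since the D849V change alters 1 codon, this level does not check the genotype. In the mutant libraries, the 5 macrophage markers summed to 1.41 and 1.40 FPKM, against 0.686 and 0.394 FPKM in the control libraries, with *Adgre1* at 0 in both control libraries and *Ptprc* at most 0.00613 FPKM in any library. *Lgsn*, which encodes lengsin of lens fibres, had 19.0 and 5.54 FPKM in the mutant libraries and 28.5 and 41.0 FPKM in the control libraries, whereas 5 of the 8 fibre markers tested were higher in the mutant, with a list median log2 fold change of 0.07. Of the lens epithelium markers, 5 of 6 were lower, only *Pdgfra* of these without overlap. The summed FPKM of the 6 lay between 132 and 159 with overlapping groups, and *Foxe3* supplied the greater part of it. The other epithelium markers lay between 3.54 FPKM (*Gja1*) and 12.1 FPKM (*Cdh1*) in a library. The 3 red cell markers tested were also lower, all with overlapping groups. The sums of their list were 25.2 and 17.2 FPKM in mutant and 34.9 and 21.6 FPKM in control libraries. Of the 3 mural cell and fibroblast markers tested, 1 was lower and 2 were higher. *Rgs5* was lower without overlap, with 3.43 and 2.47 FPKM against 4.604 and 4.296 FPKM. *Acta2* and *Col1a2* were higher with overlapping groups, at log2 fold changes of 0.17 and 0.29. The part of any of these in the values given here was not tested. In whole lenses, fewer cells of a type and less RNA per cell cannot be told apart.

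All 7 genes were clearly expressed, with between 401 and 966 reads in a library, and their mean FPKM over the 4 libraries spanned a 5.06-fold range. *Fdft1*, which joins 2 farnesyl diphosphates into squalene, was the highest with a mean of 12.0 FPKM and ranked first of the 7 in every library. *Hmgcs1*, the synthase that makes HMG-CoA, and *Cyp51*, the demethylase that begins the conversion of lanosterol, followed with means of 8.78 and 8.40 FPKM, and the ranges of these genes over the libraries overlapped. *Dhcr7*, *Srebf2* and *Sqle* had means of 4.87, 4.80 and 4.78 FPKM and exchanged ranks 4 to 6 between libraries, so their order is not larger than their spread. *Lss*, the cyclase that forms lanosterol, was the lowest at a mean of 2.38 FPKM and ranked seventh in every library. Among the 15997 genes tested, this placed *Fdft1* at the 91.2 percentile of mean FPKM and *Lss* at the 67.7 percentile.

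The order in the middle depended on the gene length by which reads were divided. The table uses the length of all exons joined, 10787 bases for *Lss*, 5546 for *Sqle* and 5817 for *Dhcr7*, whereas their longest protein-coding transcripts in GENCODE M21 have 4667, 2758 and 2815 bases. Divided by transcript length, the mean FPKM became 13.4 for *Fdft1*, 11.6 for *Hmgcs1*, 10.1 for *Dhcr7*, 9.60 for *Sqle*, 9.43 for *Cyp51*, 6.79 for *Srebf2* and 5.49 for *Lss*. *Fdft1* remained first and *Lss* last, while *Dhcr7*, *Sqle* and *Cyp51*, with SDs of 1.61, 0.185 and 1.24 over the libraries, did not differ beyond their spread. The coefficient of variation of FPKM over the 4 libraries, mutant and control together, was 1.93% for *Sqle*, 4.25% for *Fdft1* and 5.60% for *Hmgcs1*. It was between 12.3% and 16.0% for the other 4 genes. This coefficient includes any difference between the groups, and whether the genes differ in variability was not tested.

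In the mutant lenses, 6 of the 7 genes had a lower mean FPKM than in controls, from -1.05% for *Sqle* to -19.7% for *Srebf2*, and *Fdft1* was 6.03% higher. By log2 fold change, 6 of the 7 were lower as well, against 49.3% of all genes tested. None of the differences of the 7 genes passed the test across all genes. At an adjusted limma p under 0.05, 0 of the 7 were called, against 6 of 15997 genes, or 0.0375%, and the smallest adjusted limma p among the 7 was 0.769, for *Srebf2*. At an unadjusted limma p under 0.05, 1 of the 7 was lower, against 2.92% of all genes, and 0 of the 7 were higher, against 3.39%. The mutant and control values did not overlap for 4 genes that were lower, *Srebf2*, *Cyp51*, *Lss* and *Hmgcs1*, against 18.3% of all genes tested, and for 1 gene that was higher, *Fdft1*, against 18.2%. The median log2 fold change, mutant over control, was -0.21 for the 7 genes and 0.0041 for all genes tested, and the former was -0.12 without mutant replicate 2 and -0.25 without control replicate 1. With limma's voom on the recovered reads, 0 of the 7 passed an adjusted p of 0.05, against 0.0875% of all genes.

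**Figure D1:**
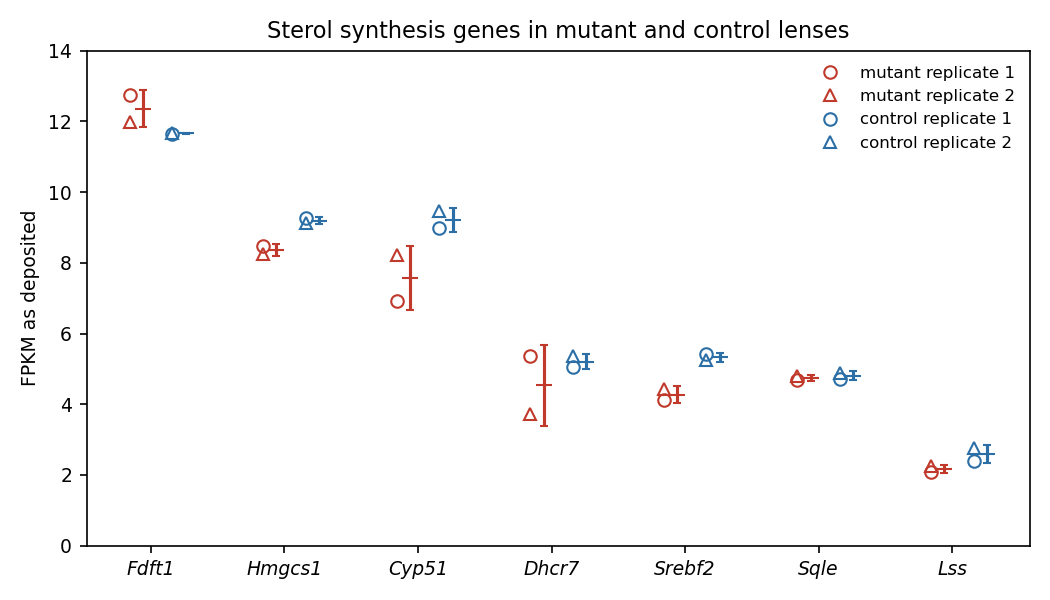
FPKM as deposited of the 7 genes in the 2 mutant (red) and 2 control (blue) libraries, with circles for replicate 1, triangles for replicate 2, and a bar for the mean ± SD of each group (n = 2). Both mutant values lie below both control values for *Hmgcs1*, *Cyp51*, *Srebf2* and *Lss* and above them for *Fdft1*, while the groups overlap for *Dhcr7* and *Sqle*.

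*Srebf2* is the regulator of the set. It lies at chr15:82031382-82089580 on the plus strand in the coordinates of the table (mm39). Its FPKM was 4.11 and 4.44 in the mutant libraries and 5.41 and 5.24 in the control libraries, means of 4.28 ± 0.238 and 5.33 ± 0.121 (SD, n = 2). Both mutant libraries were below both controls, and the gap between the groups exceeded the range within either group. The log2 fold change was -0.31 ± 0.11 (SE), with an unadjusted limma p of 0.0339 and an adjusted limma p of 0.769. Leaving out each library in turn kept it between -0.37 and -0.26. The *Srebf2* span also holds *Mir33*, a microRNA known to target the cholesterol exporter *Abca1*, and the gene Gm49502, and *Mir33* was listed at 0 in all libraries.

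*Hmgcs1*, which condenses acetyl-CoA and acetoacetyl-CoA into HMG-CoA, is the first member in pathway order and lies at chr13:120151915-120169796 on the plus strand. Its FPKM was 8.47 and 8.25 in the mutant libraries and 9.26 and 9.13 in the control libraries. The groups did not overlap, and the values within each group were close. The difference was small, with a log2 fold change of -0.14 ± 0.09 and an adjusted limma p of 0.811.

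The fold changes of the squalene and lanosterol steps differed in sign, and none of these genes was called. *Fdft1*, at chr14:63382599-63417027 on the minus strand, had 12.74 and 11.99 FPKM in the mutant libraries and 11.64 and 11.68 FPKM in the control libraries. It was the only member with a higher mean in the mutant, at a log2 fold change of 0.08 ± 0.09 and an adjusted limma p of 0.849. The pseudogene Gm6781 shares 16.5% of the 31-base words of *Fdft1* and had at most 7 reads in a library, and the end of *Ctsb* overlaps *Fdft1* on the opposite strand.

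*Sqle* encodes squalene epoxidase, a rate-limiting enzyme of the pathway, and lies at chr15:59186926-59203041 on the plus strand. Its FPKM was 4.69 and 4.81 in the mutant libraries and 4.71 and 4.89 in the control libraries, so the groups overlapped. The log2 fold change was -0.01 ± 0.10 with an adjusted limma p of 0.986, and its sign turned when mutant replicate 1 (0.0015) or control replicate 2 (0.0063) was left out.

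*Lss*, at chr10:76367422-76392972 on the plus strand, had 2.09 and 2.24 FPKM in the mutant libraries and 2.41 and 2.77 FPKM in the control libraries. Both mutant values were lower, although the gap between the groups was smaller than the range within the control group. The log2 fold change was -0.25 ± 0.14, with an adjusted limma p of 0.811, and it stayed between -0.34 and -0.15 as each library was left out.

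*Cyp51*, at chr5:4131145-4154746 on the minus strand, had 6.92 and 8.21 FPKM in the mutant libraries and 8.98 and 9.46 FPKM in the control libraries. Mutant replicate 1 was the lowest of the 4 libraries, and the groups did not overlap. The log2 fold change was -0.29 ± 0.12, with an unadjusted limma p of 0.0645 and an adjusted limma p of 0.806. It was -0.17 without mutant replicate 1 and -0.41 without mutant replicate 2. *Akap9* overlaps *Cyp51* on the opposite strand, and whether reads were counted by strand is not given in the sources used here.

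*Dhcr7*, the reductase that completes cholesterol from 7-dehydrocholesterol, lies at chr7:143376882-143402147 on the plus strand. Its FPKM was 5.35 and 3.72 in the mutant libraries and 5.05 and 5.35 in the control libraries. Mutant replicate 1 was level with the control libraries and mutant replicate 2 was the lowest of the 4, so the lower mutant mean rested on that single library. The log2 fold change of -0.21 ± 0.19, with an adjusted limma p of 0.815, became 0.039 without mutant replicate 2 and -0.47 without mutant replicate 1.

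Summed over the 7 genes, FPKM was 44.4 and 43.7 in the mutant libraries and 47.5 and 48.5 in the control libraries. The mutant mean was 44.0 ± 0.504 and the control mean 48.0 ± 0.747 (SD, n = 2), a difference of -3.97 FPKM or -8.27%. No test is given for this sum, and an exact two-sided permutation test of 2 against 2 libraries could not go below p = 0.333.

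The wider list of cholesterol synthesis enzymes held 24 genes, of which 22 were tested. It includes the enzymes described above, so its counts and sums are not independent of theirs. Of these 22, 17 were lower and 5 higher in mutant lenses, against 49.3% lower among all genes tested. By adjusted limma p, 0 of the 22 passed 0.05. The median log2 fold change of the 22 was -0.14. The groups did not overlap for 10 genes that were lower, against 18.3% of all genes tested, and for 2 that were higher, against 18.2%. The FPKM of all 24 summed to 78.5 and 78.9 in the mutant libraries and 87.2 and 86.6 in the control libraries, a difference of -9.45%.

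Among the other mevalonate steps, the kinases *Mvk* and *Pmvk*, which phosphorylate mevalonate in turn, had log2 fold changes of -0.37 and -0.12, and *Mvd*, which makes isopentenyl diphosphate, had -0.24, all 3 without overlap. *Acat2*, the thiolase that supplies acetoacetyl-CoA, had 0.10, with overlapping groups, and shares 50.5% of its 31-base words with *Acat3*. *Idi1*, the isomerase of isopentenyl diphosphate, had a log2 fold change of -0.33, with 22.2% of its words shared with other genes, and *Ggps1*, which makes geranylgeranyl diphosphate for protein prenylation, had -0.15. *Idi2* was below the filter, with 2 reads in 1 control library and 0 in the other 3. *Fdps*, farnesyl diphosphate synthase, was also below it, with 0.0400 and 0.170 FPKM in mutant and 0.0367 and 0.116 FPKM in control libraries. Gm43738 overlaps 89.7% of the *Fdps* span on the same strand and holds 79.0% of its words, so the low value of *Fdps* is uncertain as a level of this enzyme, and Gm43738 itself was listed at 0.

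The fold changes of the genes that act after lanosterol also differed in sign, and none of them was called. *Msmo1*, the C4-methylsterol oxidase, was lower without overlap at a log2 fold change of -0.22, and *Sc5d*, the lathosterol desaturase, had -0.17 with overlapping groups. *Tm7sf2* and *Lbr* encode the sterol C14-reductases, of which the lamin B receptor *Lbr* also anchors chromatin, and had log2 fold changes of -0.03 and 0.25, the latter without overlap. *Nsdhl* and *Hsd17b7*, which act on the C4 position with *Msmo1*, had 0.06 and 0.14, the scaffold *Erg28* had -0.12 and the isomerase *Ebp* had -0.04, all with overlapping groups. Leaving out 1 library turned the sign for *Acat2*, *Ggps1*, *Tm7sf2*, *Nsdhl*, *Hsd17b7*, *Erg28* and *Ebp*.

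**Figure D2:**
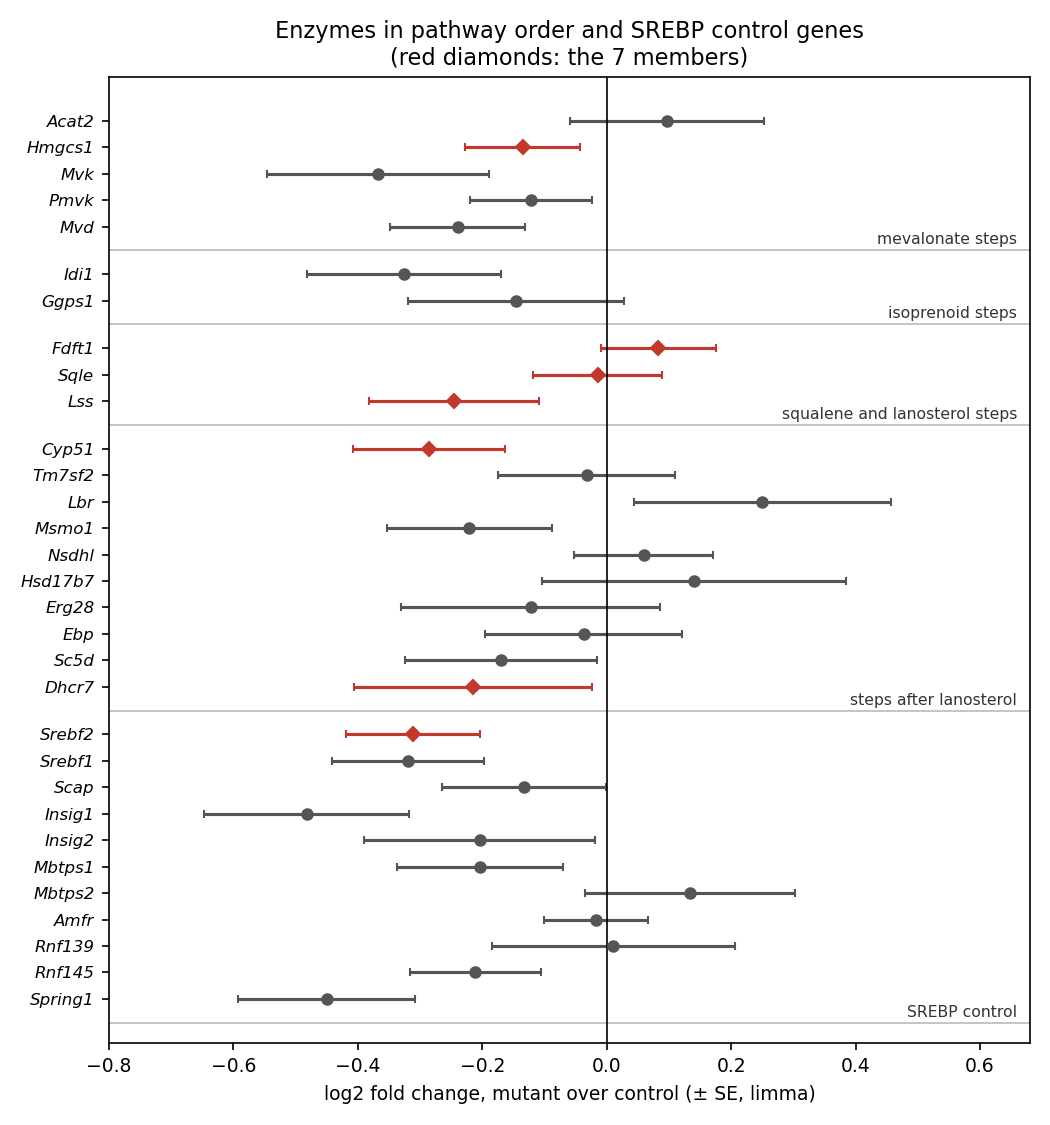
Log2 fold change, mutant over control, with its SE from limma (bars), for 20 tested enzymes in pathway order and for 11 genes of SREBP control, with the 7 genes described here as red diamonds. Values lie between -0.48 (*Insig1*) and 0.25 (*Lbr*), and most points are left of 0.

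Of the 11 genes of SREBP control, *Srebf2* included, 9 were lower and 2 higher in mutant lenses, against 49.3% lower among all genes tested. The median log2 fold change of the 11 was -0.20. None passed an adjusted limma p of 0.05, 4 had an unadjusted limma p under 0.05, all lower, against 2.92% of all genes tested, and 7 were lower without overlap, against 18.3%. The median was -0.14 without control replicate 1 and -0.32 without control replicate 2. *Insig1*, which retains SCAP and is itself a target of SREBPs, had 7.96 and 5.88 FPKM in the mutant libraries and 9.86 and 9.35 FPKM in the control libraries, which gave a log2 fold change of -0.48 ± 0.17 with an adjusted limma p of 0.769, and of -0.27 without mutant replicate 2. *Srebf1*, the relative of *Srebf2* that favours fatty acid genes, had 6.10 and 6.28 FPKM against 8.43 and 7.13 FPKM, a log2 fold change of -0.32 ± 0.12. *Spring1*, needed for SREBP cleavage, had 1.36 and 1.30 FPKM against 1.96 and 1.76 FPKM, a log2 fold change of -0.45 ± 0.14 with an adjusted limma p of 0.748. For all 4 genes with an unadjusted p under 0.05, both mutant libraries were below both control libraries.

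**Figure D3:**
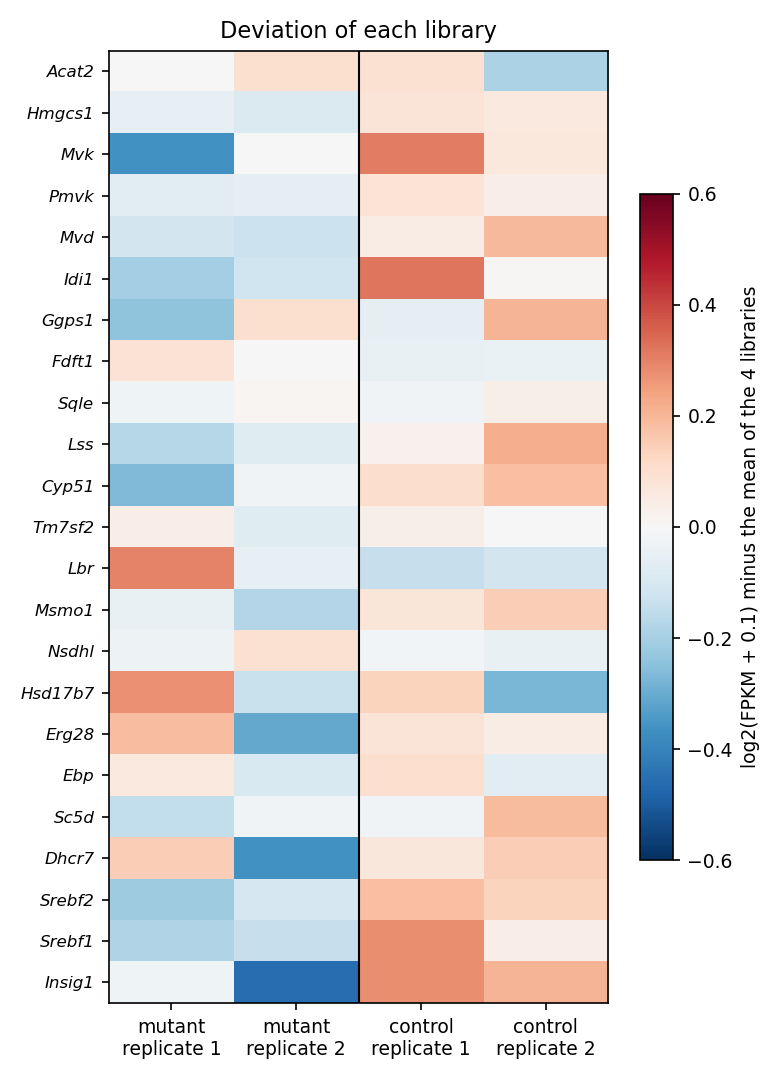
Deviation of log2(FPKM + 0.1) in each library from the mean of the 4 libraries, for 20 tested enzymes in pathway order followed by *Srebf2*, *Srebf1* and *Insig1* (blue lower, red higher). *Srebf2*, *Srebf1* and *Insig1* lie below the mean in both mutant libraries and above it in both control libraries. *Insig1* in mutant replicate 1 (-0.026) and *Srebf1* in control replicate 2 (0.040) are nearly white. *Dhcr7* is blue in mutant replicate 2 alone.

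Among 16 genes of sterol uptake and transport, 13 were lower and 3 higher, against 49.3% lower among all genes tested. The median log2 fold change of the 16 was -0.11, and 0 had a limma p under 0.05 before or after adjustment. *Lrp1*, a large endocytic receptor, had 2.68 and 3.71 FPKM in the mutant libraries and 5.18 and 3.73 FPKM in the control libraries. The groups were barely apart, and the log2 fold change was -0.47. *Stard4*, a carrier of cholesterol between membranes, had -0.35 with overlapping groups. Leaving out each library in turn gave -0.70 to -0.23 for *Lrp1* and -0.63 to -0.08 for *Stard4*, and the list median was -0.056 without mutant replicate 1 and -0.20 without mutant replicate 2.

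Of the 14 genes of sterol efflux, storage and oxidation, 12 were tested, 7 higher and 5 lower, with a median log2 fold change of 0.098. *Apoe*, the apolipoprotein that accepts exported cholesterol, had 12.6 and 18.4 FPKM in the mutant libraries and 11.8 and 10.4 FPKM in the control libraries, which gave a log2 fold change of 0.46 ± 0.20 with an adjusted limma p of 0.809, and of 0.18 without mutant replicate 2. *Nr1h3*, the sterol sensor LXR alpha, had 0.156 and 0.102 FPKM in mutant and 0.348 and 0.388 FPKM in control libraries, which rests on 5 to 18 reads. Its log2 fold change was -1.04 ± 0.36, with an unadjusted limma p of 0.0328 and an adjusted limma p of 0.769. *Abca7*, a lipid transporter, had 0.23. Macrophages also express *Apoe* and *Nr1h3*. The macrophage marker sums given above were higher in the mutant libraries, as was *Apoe*, whereas *Nr1h3* was lower. Among these markers, *Cd68* had 2 to 16 reads and *C1qa* 5 to 19 reads in a library. Any part of macrophages in the values of *Apoe* and *Nr1h3* was not tested.

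Prenylation, which attaches isoprenoids of the same pathway to proteins, was represented by 8 genes, 4 higher and 4 lower, with a median log2 fold change of -0.02. *Icmt*, the methyltransferase of prenylated proteins, had the smallest unadjusted limma p, 0.0376, with a log2 fold change of -0.45 ± 0.16 and an adjusted limma p of 0.781. The Rab geranylgeranyl transferase genes *Rabggta* and *Rabggtb* had log2 fold changes of 0.39 and 0.20.

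**Figure D4:**
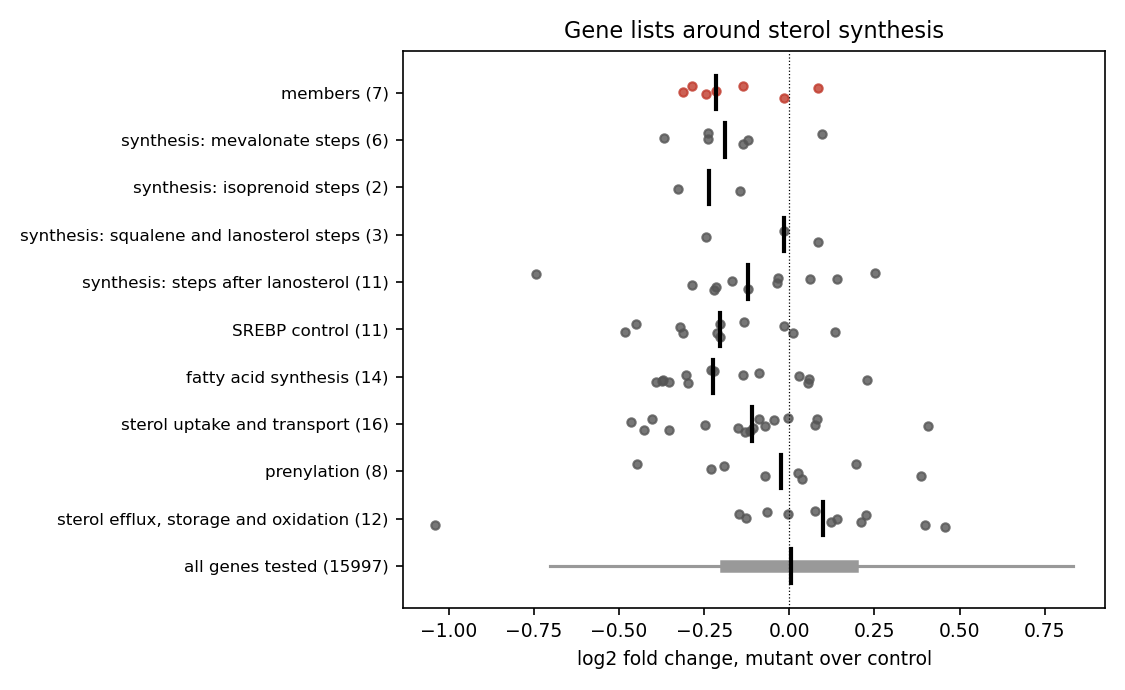
Log2 fold change, mutant over control, of each tested gene in the lists around sterol synthesis (points, number tested in brackets) with the list median (black bar). For all 15997 genes the thick grey bar spans the 25 to 75 percentiles (-0.19 to 0.18) and the thin line the 5 to 95 percentiles (-0.70 to 0.83), and the median of the 7 genes lies at -0.21.

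The 5 genes whose pattern over the 4 libraries was nearest to the mean pattern of the 7 were sought among 8371 genes whose mean FPKM was 1 or more, by the Euclidean distance of centred log2(FPKM + 0.1). These were *Arvcf* (distance 0.018), *Pea15a* (0.025), *Csad* (0.030), *Cuedc1* (0.031) and *Wdr4* (0.034). *Pea15a*, a regulator of ERK signalling, had 112.5 and 113.4 FPKM in the mutant libraries and 123.3 and 128.9 FPKM in the control libraries.

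**Figure D5:**
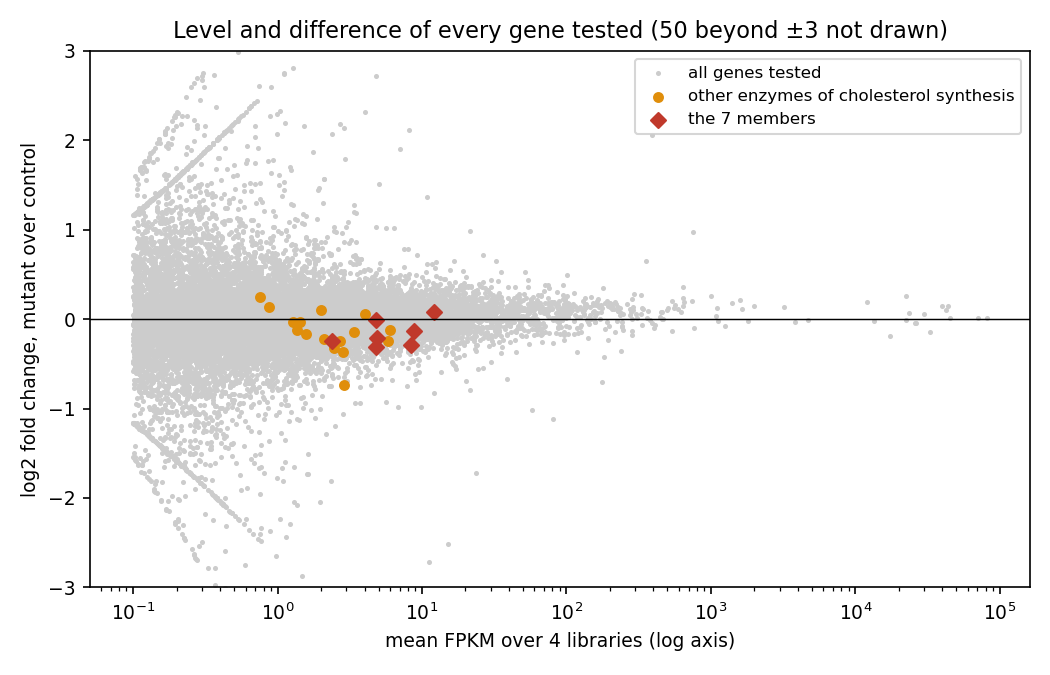
Mean FPKM over the 4 libraries (log axis) against log2 fold change, mutant over control, for the genes tested (grey), the other enzymes of cholesterol synthesis (orange) and the 7 genes described here (red diamonds). The 7 lie between -0.31 and 0.08 on the log2 scale, within the grey points at their level.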

How the data were processed

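Lens polyA RNA was sequenced from 2 mutant and 2 control pools. The authors' provider aligned reads with HISAT2 and counted them per gene with featureCounts, and the deposited table holds FPKM of 56748 genes with lengths and positions (mm39, per the submitters' processing notes). No per-sample column was left unused (0). Multiplied by gene length, 100% of deposited FPKM above 0 were whole multiples of 1 step (to 0.001 reads, widened in proportion for the most abundant genes), so reads were recovered (18561682 to 18878768 per library). Whether the replicates were separate litters is not stated, and p-values measure the spread between these pools only.

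FPKM were scaled by median ratios, a factor of 1.01 in every library. The 15997 genes whose mean FPKM was 0.1 or more entered lmFit and eBayes (trend) of limma 3.58.1 as log2(FPKM + 0.1) (R 4.3.3), with Benjamini-Hochberg adjustment. This scale understates changes of low genes. A difference was called at an adjusted p under 0.05. The test was tried on simulated data. Alternatives were other pseudocounts and filters, no trend, voom on recovered reads, other scaling, a replicate block, a sex covariate and leaving out each library. Division by the longest protein-coding transcript was added after seeing the data.

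The members and lists were chosen with earlier results of these data known. Named genes were the 7 members, the other listed enzymes, the 3 lowest p in each other list, *Pdgfrb*, and the 5 genes of nearest pattern, of which some are not reported here. Markers, *Srebf1* and *Fasn* were named after their values were seen. Promoters came from RefSeq (GRCm38.p6), other transcripts from GENCODE M21, and no coordinates were converted between builds. Tables and figures were made in Python 3.11.15 (pandas 2.3.3, numpy 2.4.6, matplotlib 3.10.9).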

Additional observations from a re-analysis of the deposited data

How the results depend on the processing

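None of the 7 genes was called under any of the 10 alternatives that kept every library. Under all 10, 6 of 7 had a lower mutant value, and 5 or 6 did when 1 library was left out. The filters, the trend, the replicate block and the sex covariate cannot change a fold change of these genes here. FPKM as deposited differ from the scaled values only by a common factor of 1.01. Signs under these settings were therefore fixed in advance, and only the pseudocounts, voom and the scaling without crystallins could move them. The number of genes called among all tested, 6, became 2 with a pseudocount of 1 or 0.01 FPKM, with a filter at a mean FPKM of 1, without the trend and with a replicate block, 1 without a filter and with the sex covariate, and 14 with voom, and it was 0 to 0 when each library was left out in turn. The labels number the replicates of both groups, but same-numbered libraries did not deviate together (correlation -0.0051 over 15997 genes), and under the replicate block the unadjusted limma p of *Srebf2* was 0.0710. The summed FPKM of the 7 genes differed by -3.94 after scaling and by -5.52 when libraries were set to equal summed FPKM without crystallins, which moved the median log2 fold change of all genes to -0.04 and that of the 7 to -0.26, and it ranged from -4.47 to -3.42 as each library was left out. Among the fold changes of the members and enzymes, 12 turned in sign, all on leaving out 1 library. On leaving out 1 library, 80 others kept their sign, as did 228 under the other settings. The 228 include the settings named above that could not change a sign, so this count does not measure stability. The ranges of those that turned were -0.050 to 0.24 for *Acat2*, -0.47 to 0.039 for *Dhcr7*, -0.12 to 0.047 for *Ebp*, -0.37 to 0.12 for *Erg28*, -0.32 to 0.022 for *Ggps1*, -0.067 to 0.34 for *Hsd17b7*, -0.0052 to 0.12 for *Nsdhl*, -0.040 to 0.0063 for *Sqle* and -0.090 to 0.022 for *Tm7sf2*. The medians ranged from -0.081 to 0.049 for prenylation, -0.040 to 0.0063 for the squalene and lanosterol steps and -0.12 to 0.022 for the steps after lanosterol. The causes were not tested. Reads per library, between 401 and 966 for the 7 genes, and the number of pools, 2 per group, limit the precision.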

Other observations

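Fatty acid synthesis shares its first substrate, cytosolic acetyl-CoA, with cholesterol synthesis. Of 14 genes on this list, 10 were lower and 4 higher in mutant lenses, against 49.3% lower among all genes tested. The median log2 fold change was -0.22 against 0.0041 for all genes tested, and 8 were lower without overlap against 18.3% of all genes. The median lay between -0.31 and -0.12 as each library was left out, the latter without mutant replicate 1. None passed an adjusted limma p of 0.05. *Acly*, which makes cytosolic acetyl-CoA from citrate, had 4.66 and 5.08 FPKM in the mutant libraries and 6.36 and 6.46 FPKM in the control libraries, which gave a log2 fold change of -0.39 ± 0.11 with an unadjusted limma p of 0.0136 and an adjusted limma p of 0.690. *Scd2*, a stearoyl-CoA desaturase, was far more abundant, with 95.4 and 109.8 FPKM in the mutant libraries and 139.4 and 126.1 FPKM in the control libraries, which gave a log2 fold change of -0.37 ± 0.11 with an adjusted limma p of 0.737. *Acaca*, the carboxylase that commits acetyl-CoA to fatty acids, and *Fasn*, the synthase, had log2 fold changes of -0.37 and -0.35, both without overlap. The summed FPKM of the list was 143 and 159 in mutant and 191 and 177 in control libraries, of which *Scd2* supplied the greater part.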
